A study of Mus musculus with 12 samples.

Results

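Loss of the T-box transcription factor Tbr2 was examined in male embryonic mouse retina, by RNA sequencing of 3 mutant and 3 wildtype pools. These 6 libraries are the male ones among the 12 libraries of the study, chosen by the sex and genotype in their labels, and the other 6 are of females. Each library was made from 12 pooled male retinas of embryos at E15.5, of C57BL/6 strain. Mutant retinas were Six3-Cre:Tbr2f/f, with floxed Tbr2 alleles and a Six3-driven Cre recombinase that acts in the developing retina, so that cells Cre did not reach can keep Tbr2. The control retinas are labelled wildtype, and the labels used here do not say whether they carried Cre or floxed alleles. In both groups the pools are numbered 4, 5 and 6, and pools drew on several litters, so that p-values measure the spread between pools and not between embryos.

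Tbr2 is the product of the gene Eomes and switches target genes on or off by binding DNA through its T-box. In the retina it is made in newborn ganglion cells, and it is known for its need in intrinsically photosensitive retinal ganglion cells (ipRGC). These are the ganglion cells that make the photopigment melanopsin, encoded by Opn4, and that carry light signals for the circadian clock and the pupil reflex.

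Eomes was lower in every mutant pool than in any wildtype pool. Its level was 56.8, 76.1 and 65.5 counts per 1e6 reads (CPM) in wildtype pools 4, 5 and 6, and 24.9, 21.2 and 27.4 CPM in mutant pools 4, 5 and 6. The mutant mean of 24.5 ± 3.10 CPM (SD, n = 3) was 37.0% of the wildtype mean of 66.1 ± 9.66 CPM (SD, n = 3). The lowest wildtype pool therefore held more than the highest mutant pool, and all 3 mutant pools still had reads of the gene. Reads were counted over the whole gene (ENSMUSG00000032446, a protein coding gene at 118478212 to 118486132 on the plus strand of chromosome 9 in mm10), any exons outside the floxed part included. In bulk tissue, fewer cells that make a transcript and less of it per cell cannot be told apart.

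The log2 fold change of Eomes was -1.43 (SE 0.16), with an edgeR adjusted p of 0.3765 and a DESeq2 adjusted p of 7.267e-11. In the quasi-likelihood fit of edgeR, at a Benjamini-Hochberg adjusted p of 0.05, 0 of 14950 tested genes (0%) differed between the male genotypes, and 217 (1.45%) had an unadjusted p under 0.05. By limma voom the number was also 0. DESeq2 called 6 of 20375 genes (0.0294%), and the same 6 pass in the authors' deposited table. An exact permutation test of 1 gene, 3 pools against 3, cannot give a two-sided p under 0.1. Genes are therefore described below mostly by their levels in each pool, and those of the 6 are named as called by DESeq2.

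Over all genes tested, the fold change was small and even in direction. Mutants were lower for 7205 genes and higher for 7745, at a median log2 fold change of 0.01 and a median absolute one of 0.12. Mutant and wildtype pools did not overlap for 806 genes (5.39%), lower in mutants for 436 (2.92%) and higher for 370 (2.47%). The neighbour of Eomes on chromosome 9, Golga4, a Golgi protein gene, stood at 148 to 173 CPM in wildtype pools and 153 to 170.4 CPM in mutant pools, a log2 fold change of 0.00. Among 7 tested genes within 500 kb of Eomes on either side, Eomes left out, 0 had groups without overlap. So few genes cannot be told apart from the 5.39% of all genes.

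**Figure D1:**
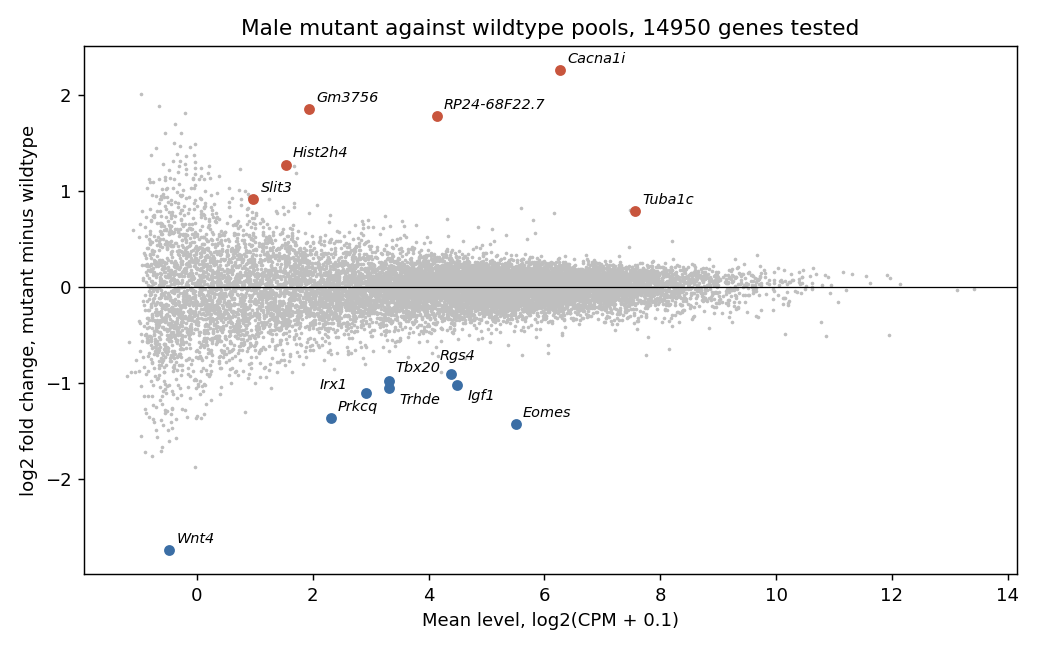
Log2 fold change of male mutant (Six3-Cre:Tbr2f/f) minus wildtype pools (vertical axis) against the mean level as log2(CPM + 0.1) (horizontal axis) for the 14950 genes tested, one grey point each. Blue and red points are named genes lower and higher in mutants, with Eomes at -1.43 and Cacna1i at 2.27, while most grey points lie near 0 and spread widens at low levels.

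The other 2 genes called lower by DESeq2 encode enzymes. Prkcq, which encodes the theta isoform of protein kinase C, stood at 7.07, 5.98 and 7.97 CPM in wildtype pools 4, 5 and 6 and at 2.76, 2.28 and 3.02 CPM in mutant pools (log2 fold change -1.37, SE 0.21, DESeq2 adjusted p = 0.001414, edgeR adjusted p = 0.993). Trhde, which encodes the ectoenzyme that degrades thyrotropin-releasing hormone, stood at 11.1, 15.55 and 13.1 CPM in wildtype pools and at 7.62, 5.90 and 5.62 CPM in mutant pools (log2 fold change -1.05, SE 0.21, DESeq2 adjusted p = 0.0272). For both genes the mutant pools lay close together and under all wildtype pools. With 1 library left out at a time, DESeq2 called Eomes in 6 of 6 fits, Prkcq in 3 and Trhde in 1, without mutant pool 4. Prkcq was not called without mutant pool 5, wildtype pool 4 or wildtype pool 6, at DESeq2 adjusted p of 0.0977, 0.120 and 0.245. Per transcript length in wildtype pools, Eomes was the most abundant of the 3, at 18.6 ± 2.71 FPKM (SD, n = 3), against 2.32 ± 0.388 for Trhde and 1.77 ± 0.252 for Prkcq.

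Relatives of these enzymes did not share the size of their difference. Of 12 protein kinase C isoform genes tested, 7 were lower and 5 higher in mutants, the median being -0.05 on the log2 scale, and 1 of 12, Prkcq, had an unadjusted edgeR p under 0.05. Prkch and Prkd1 were also under all wildtype pools in every mutant pool, by -0.15 and -0.06 on the log2 scale. Of 13 genes of thyrotropin-releasing hormone and thyroid hormone signalling tested, 4 were lower and 9 higher, with a median of 0.08. The nuclear thyroid hormone receptor genes Thra and Thrb stood at log2 fold changes of 0.04 and 0.03, with overlapping groups.

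**Figure D2:**
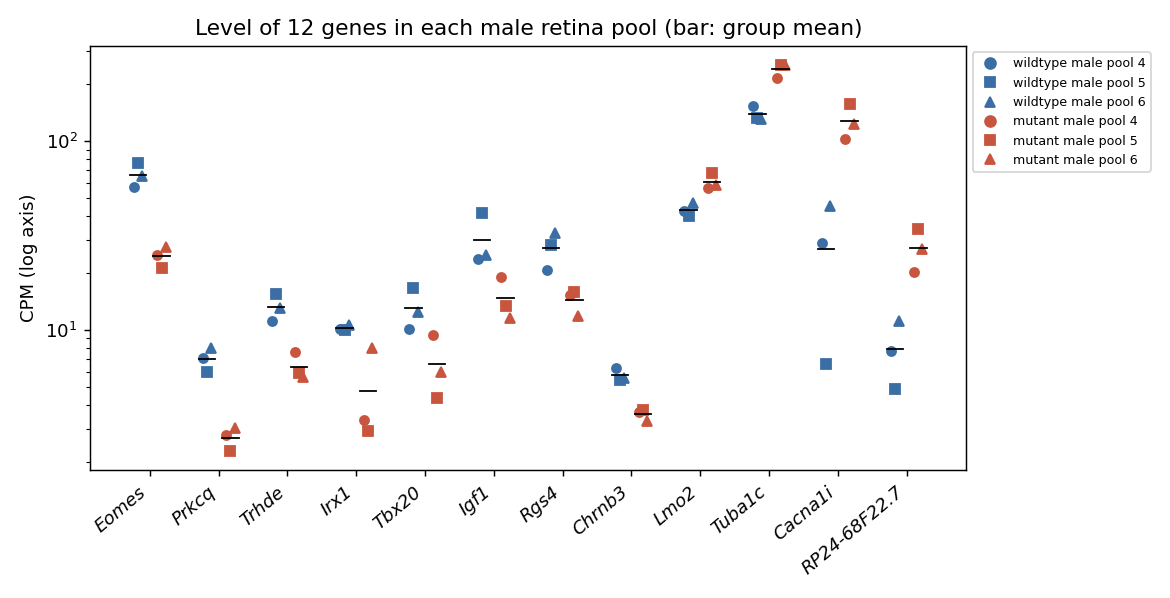
Level of 12 genes in CPM (log axis) in each of the 6 male pools, with wildtype pools in blue, mutant pools (Six3-Cre:Tbr2f/f) in red, symbols for the pool number and a black bar at each group mean. For each gene the groups do not overlap, and wildtype pool 5 is far under the other wildtype pools for Cacna1i, at 6.56 CPM.

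The genes known for ipRGC leaned lower in mutants, led by 3 of them. Of 14 tested members of an 18-gene ipRGC list that leaves Eomes out, 10 were lower and 4 higher, and the median log2 fold change was -0.30. Over all genes tested, 48.2% were lower and the median was 0.01. Of the 14, 3 had an unadjusted edgeR p under 0.05 and were lower (0.662% of all genes tested) and 1 was higher (0.789% of all genes). Groups did not overlap for 6 of the 14, 5 lower (2.92% of all genes tested) and 1 higher (2.47%). The list was written with earlier results of these data known and is no independent evidence of its direction.

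Irx1, an Iroquois homeobox transcription factor gene, was at 10.1, 9.96 and 10.6 CPM in wildtype pools 4, 5 and 6 and at 3.33, 2.90 and 7.99 CPM in mutant pools. Tbx20, a T-box factor gene like Eomes, was at 10.1, 16.6 and 12.5 CPM in wildtype pools and at 9.43, 4.35 and 6.00 CPM in mutant pools. Igf1, which encodes insulin-like growth factor, was at 23.7, 41.3 and 24.9 CPM in wildtype pools and at 19.1, 13.4 and 11.5 CPM in mutant pools. Mutant pool 6 was the highest mutant pool for Irx1, whereas mutant pool 4 was the highest for Tbx20 and Igf1 and came close to wildtype pool 4. Log2 fold changes were -1.10 (SE 0.37) for Irx1, -0.98 (SE 0.32) for Tbx20 and -1.03 (SE 0.28) for Igf1, each with an edgeR adjusted p of 0.993. Without mutant pool 6 the value of Irx1 was -1.71, and without the 2 pools highest in the lens gene Cryaa (wildtype 5 and mutant 5) those of Tbx20 and Igf1 were -0.52 and -0.64.

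Melanopsin itself was scarce at this age. Opn4 was at 1.77, 1.91 and 1.60 CPM in wildtype pools 4, 5 and 6 and at 0.762, 0.672 and 2.27 CPM in mutant pools, or 13 to 49 reads a library. Mutant pools 4 and 5 were under all wildtype pools and mutant pool 6 was above them, so the groups overlapped (log2 fold change -0.51, SE 0.49, edgeR adjusted p = 0.993). Per transcript length, Opn4 in wildtype pools was at 0.779 ± 0.0707 FPKM (SD, n = 3), under Tbx20 at 2.03 ± 0.512 and Irx1 at 4.30 ± 0.137.

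The remaining ipRGC genes went both ways. Adcyap1, which encodes the neuropeptide PACAP that ipRGC release, was at 17.98, 18.2 and 18.5 CPM in wildtype pools and at 14.7, 16.4 and 13.7 CPM in mutant pools, without overlap (log2 fold change -0.28). Plcb4, the phospholipase C of the melanopsin cascade, was at 32.6 to 36.8 CPM in wildtype pools and 23.4 to 30.8 CPM in mutant pools (-0.27). Trpc7 and Trpc6, channel genes of the same cascade, had values of -0.81 and -0.32 with overlapping groups at about 1 CPM. Lmo2, a LIM-domain transcription cofactor gene in the list, went the other way, at 42.5, 40.1 and 46.9 CPM in wildtype pools and 56.6, 67.5 and 58.4 CPM in mutant pools (0.50, SE 0.11, edgeR adjusted p = 0.993). Gna14 at 0.06, Sema3d at 0.32 and Baiap3 at 0.33 were the other 3 members higher in mutants, all with overlapping groups. Kcns3, Il1rapl2, Rasgrp1 and Opn5 were under the minimum count for testing.

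The lean of the ipRGC list was present in each of 16 alternative fits, with 9 of 12 to 11 of 14 members lower and medians between -0.41 and -0.22. In single pools, the summed level of its 18 genes was 208, 236 and 220.0 CPM in wildtype and 195, 203 and 195 CPM in mutant pools, without overlap. Irx1, Tbx20 and Igf1, which did not overlap singly, are part of this sum. The sum therefore does not show that the other members were lower, and it is no evidence apart from those genes. Other T-box genes had mixed directions, with 4 of 6 lower (median -0.10, and between -0.21 and 0.00 with 1 library left out), and only Tbx20 among the 6 had groups without overlap. Tbx3, Tbx2 and Tbx5, known from dorsal patterning of the retina, stood at -0.01, 0.16 and 0.11.

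As a description of sequence, the base string GTGTGA, the core of the T-box binding element, was looked for on both strands in promoter windows of RefSeq (GRCm38.p6, from 250 bases before the gene start to 50 after it). It occurred in 14.5% of 32851 windows of all genes. It was in 5 of the 17 windows of the ipRGC list (Kcns3, Trpc7, Opn4, Adcyap1 and Il1rapl2), in 2 of 9 of the genes of largest difference downward (Ghsr and Cacng3), and in 0 of 10 of those upward. None of the windows of Eomes, Prkcq, Trhde and Tuba1c held it. The longer string AGGTGTGA was in 1.27% of all windows and in 0 of these sets. The Opn4 window is shown because it belongs to the photopigment gene and holds a match, in capitals, that ends 225 bases before the start. The stretch is the 250 bases before the start of Opn4 at chr14:34600143-34600392, minus strand, and a match is a description of letters, not a binding site.
Opn4: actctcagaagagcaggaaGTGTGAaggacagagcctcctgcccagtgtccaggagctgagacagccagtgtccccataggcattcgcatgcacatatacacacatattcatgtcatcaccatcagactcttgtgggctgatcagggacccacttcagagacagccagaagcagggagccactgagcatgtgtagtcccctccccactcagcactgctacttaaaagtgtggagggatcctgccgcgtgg

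Genes outside these families that stood lower in mutants included single receptor, signalling and matrix genes. Among 52 lower genes with an unadjusted p under 0.05, no overlap and a mean of at least 1 CPM, the 12 with the largest log2 fold change were Eomes, Prkcq, Irx1, Trhde, Igf1, Tbx20, Thbs1, Rgs4, Ghsr, Adra1a, Blvra and Cacng3, with a median level of 7.33 CPM. Rgs4, a regulator that shortens G-protein signals, was at 20.8, 27.97 and 32.4 CPM in wildtype pools and at 15.3, 15.9 and 11.8 CPM in mutant pools (log2 fold change -0.91, SE 0.19, DESeq2 adjusted p = 0.0794). Cacng3, an auxiliary subunit gene of glutamate receptors, was at 7.64, 10.1 and 9.23 CPM in wildtype pools and at 4.96, 3.98 and 7.24 CPM in mutant pools (-0.73). Every mutant pool of these 2 genes was under every wildtype pool, by a narrow margin for Cacng3 in mutant pool 6.

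The other lower genes of that set were scarce. Ghsr, the ghrelin receptor gene, was at 1.77 to 2.18 CPM in wildtype pools and 0.667 to 1.40 CPM in mutant pools (-0.88). Adra1a, an adrenergic receptor gene, was at 1.64 to 1.87 CPM against 0.858 to 1.24 CPM (-0.85), and Thbs1, which encodes the matrix protein thrombospondin, at 2.14 to 3.32 CPM against 1.13 to 1.81 CPM (-0.94). Blvra, the biliverdin reductase gene, was at 2.15 to 3.69 CPM in wildtype and 1.03 to 2.001 CPM in mutant pools (-0.84). In the list of excitability and synapse genes, 20 of 31 tested were lower and 11 higher, with a median of -0.11. That median was -0.03 without mutant pool 4, -0.04 without mutant pool 6 and -0.03 without wildtype pool 5, with 18 of 31 lower each time. Chrnb3, a nicotinic acetylcholine receptor subunit gene, was at 6.29, 5.43 and 5.58 CPM in wildtype pools and at 3.67, 3.78 and 3.29 CPM in mutant pools (-0.68, SE 0.18). Sparcl1, which encodes a synaptogenic matrix protein, was at 14.1 to 21.1 CPM in wildtype and 11.2 to 11.7 CPM in mutant pools (-0.58).

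Wnt4, a secreted Wnt ligand gene, was nearly lost at a very low level. It had 24, 27 and 22 reads in wildtype pools 4, 5 and 6 and 2, 1 and 6 reads in mutant pools, or 1.07 ± 0.163 against 0.157 ± 0.146 CPM (SD, n = 3 each). The mutant mean was 14.6% of the wildtype mean, and all mutant pools lay under all wildtype pools (log2 fold change -2.75, SE 0.60, edgeR adjusted p = 0.993). Wnt11, another ligand gene, was higher in mutants at 1.10 to 1.34 CPM against 0.364 to 0.755 CPM (1.24, SE 0.39). Sfrp2, which encodes a secreted antagonist of Wnt ligands, was at 791, 685 and 688 CPM in wildtype pools and 844, 832 and 1036 CPM in mutant pools (0.33, SE 0.12). Over the list of Wnt ligands and antagonists, 10 of 18 tested were lower and 8 higher, with a median of -0.01.

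The 3 genes called higher by DESeq2 were a tubulin gene, a transcript antisense to Six3 and a pseudogene. Tuba1c, an alpha tubulin gene, was at 153, 133 and 130.4 CPM in wildtype pools 4, 5 and 6 and at 217, 252 and 251 CPM in mutant pools. All mutant pools were above all wildtype pools (log2 fold change 0.80, SE 0.11, DESeq2 adjusted p = 5.929e-05, edgeR adjusted p = 0.715), and DESeq2 called it in 5 of 6 fits with 1 library left out, with an adjusted p of 0.0697 without mutant pool 5. The closely similar Tuba1a and Tuba1b had log2 fold changes of 0.03 and 0.11 with overlapping groups. Of 12 alpha and beta tubulin genes 11 were higher, with a median of 0.10, but without mutant pool 6 only 4 of 12 were higher and the median was -0.03. Reads of near-identical tubulin genes may be split between them, so the level of Tuba1c is uncertain.

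Cacna1i, which encodes a T-type voltage-gated calcium channel, had the largest upward fold change among 59 genes with an unadjusted p under 0.05, no overlap and a mean of at least 1 CPM, predicted genes and pseudogenes left out. It was at 28.9, 6.56 and 45.2 CPM in wildtype pools 4, 5 and 6 and at 102, 158 and 123 CPM in mutant pools, with means of 26.9 ± 19.4 and 127 ± 28.3 CPM (SD, n = 3 each). Pool 5 was far under the other wildtype pools, and the groups did not overlap (log2 fold change 2.27, SE 0.56, edgeR adjusted p = 0.993, DESeq2 adjusted p = 0.9996). Without the 2 pools highest in Cryaa the value was 1.62. Its neighbours within 100 kb on chromosome 15, Mgat3, Mief1, Atf4 and Rps19bp1, had log2 fold changes of 0.08, 0.08, 0.06 and 0.00. Among 14 tested genes within 500 kb, 0 had groups without overlap, against 5.39% of all genes tested. A window of 14 genes is too small to differ from that share.

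The transcript listed as RP24-68F22.7 (ENSMUSG00000099635, named Gm28528 in GENCODE M21) lies on the minus strand of chromosome 17 at 85619326 to 85621001 and is annotated as antisense. It was at 7.74, 4.84 and 11.2 CPM in wildtype pools 4, 5 and 6 and at 20.2, 34.1 and 26.9 CPM in mutant pools, so the lowest mutant pool was above the highest wildtype pool (log2 fold change 1.79, SE 0.30, DESeq2 adjusted p = 2.183e-05, edgeR adjusted p = 0.993). DESeq2 called it in 5 of 6 fits with 1 library left out, with an adjusted p of 0.0748 without mutant pool 5. Its exon at 85620790 to 85621001 runs across position 85620834, the RefSeq start of Six3 on the plus strand and the first base of the transcript Six3-203. Another transcript, Six3-202, begins further upstream, at 85613608, and has an intron here. Six3 encodes a homeobox factor of the eye field, and the Cre of the mutants is named after it. Six3 was at 402, 416 and 423 CPM in wildtype pools and at 427, 445 and 648 CPM in mutant pools (0.30, SE 0.16), with mutant pool 6 far above the others, and Six3os1, the longer opposite-strand transcript, was at 0.18 with overlapping groups.

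The labels do not say whether reads were counted by strand, so reads of the antisense transcript and of Six3, or of a transgene that carries sequence of this region, cannot be told apart here. Of 6 tested genes within 500 kb of Six3, Six3 left out, only the antisense transcript had groups without overlap, against 5.39% of all genes tested. The 250 bases before the RefSeq start of Six3 at chr17:85620584-85620833, plus strand (RefSeq, GRCm38.p6), are shown because the antisense exon reaches into them. Capitals mark the 44 bases, positions 207 to 250 of the stretch, that this exon covers.
Six3: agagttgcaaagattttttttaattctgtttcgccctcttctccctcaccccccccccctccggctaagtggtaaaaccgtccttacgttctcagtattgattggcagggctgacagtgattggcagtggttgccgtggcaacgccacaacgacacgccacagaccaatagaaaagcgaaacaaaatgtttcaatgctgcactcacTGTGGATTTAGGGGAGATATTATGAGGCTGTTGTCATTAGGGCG

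The pseudogene Gm3756, the last of the 6 called by DESeq2, was at 1.25, 1.91 and 1.64 CPM in wildtype pools and at 3.48, 7.24 and 6.80 CPM in mutant pools (log2 fold change 1.86, SE 0.33, DESeq2 adjusted p = 0.00205, edgeR adjusted p = 0.993). It was called in 2 of 6 fits with 1 library left out, those without mutant pool 4 and without wildtype pool 5. A pseudogene may take reads of the gene it was copied from, and its level is uncertain.

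The 12 named genes of largest difference upward, out of 59 that met the same conditions, had a median level of 1.75 CPM, against 7.33 CPM for the 12 downward. After Cacna1i came Hist2h4, a histone gene, at 1.25, 1.17 and 2.48 CPM in wildtype pools and 3.19, 3.52 and 5.13 CPM in mutant pools (log2 fold change 1.28, SE 0.35). Srgn, the serglycin proteoglycan gene of blood and immune cells, was at 0.664 to 0.839 CPM against 0.931 to 2.32 CPM (1.16), and Birc3, an apoptosis inhibitor gene, at 0.504 to 0.977 CPM against 1.13 to 1.81 CPM (1.14). Slit3, which encodes an axon guidance ligand, was at 1.18 to 1.48 CPM in wildtype and 2.14 to 2.69 CPM in mutant pools (0.92, SE 0.26). The others were Col16a1 (collagen), Lrp8os3 (an RNA on the strand opposite Lrp8), Hist1h2ai (a histone), Fam83g, Kcnc4 (a potassium channel), Lyl1 (a helix-loop-helix factor of blood cells) and Tssk6 (a kinase known from testis), between 0.83 and 1.01 on the log2 scale. Each of these 12 genes had an edgeR adjusted p of 0.993.

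Clustered histone genes, a list made after these values were seen, were higher in mutants for 35 of 45 tested, with a median log2 fold change of 0.31, and without mutant pool 6 the median was 0.13, with 17 of 45 lower. Without mutant pool 4 it was 0.47 and without wildtype pool 5 it was 0.21. Summed over 60 genes, they were at 201, 180.0 and 223 CPM in wildtype pools and at 198, 228 and 252 CPM in mutant pools, with overlap. Groups did not overlap for 4 of the 45, all higher in mutants, against 2.47% of all genes tested.

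Genes shared by ganglion cells were, as a list, at similar transcript levels in both genotypes. Of 26 tested, 18 were lower and 8 higher, and the median log2 fold change was -0.03. Without mutant pool 5 the median was 0.01, with 12 of 26 lower, and without wildtype pool 5 it was 0.02, with 11 of 26 lower. Pou4f2, the transcription factor gene of most young ganglion cells, was at 138 to 164 CPM in wildtype pools and 126 to 157 CPM in mutant pools (-0.06), and Isl1, its partner, stood at -0.01. Sncg, which encodes gamma-synuclein, was at 265 to 299.8 CPM in wildtype and 257 to 277 CPM in mutant pools (-0.05). The 3 genes of the list without overlap, Shh, Ebf3 and Nefm, were all higher in mutants. Shh, the hedgehog ligand gene that ganglion cells use to signal to progenitors, was at 3.07, 5.0 and 2.64 CPM in wildtype pools and 6.24, 6.00 and 5.89 CPM in mutant pools (0.75, SE 0.28). Ebf3, a transcription factor gene of ganglion and amacrine cells, was at 351, 365 and 339.9 CPM in wildtype pools and at 407, 399 and 425 CPM in mutant pools (0.23, SE 0.09), and Nefm, a neurofilament gene, stood at 0.20.

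Markers of other ganglion cell subtypes went both ways, with 7 of 20 tested lower, 13 higher and a median of 0.05. Irx6, a homeobox gene related to Irx1, was at 20.8, 21.95 and 20.7 CPM in wildtype pools and at 13.05, 15.1 and 18.9 CPM in mutant pools (-0.43, SE 0.16). Its relative Irx5 was at 27.7, 29.4 and 27.2 CPM in wildtype pools and at 34.3, 36.1 and 44.2 CPM in mutant pools (0.45, SE 0.13). Within this family Irx1 and Irx6 were thus under, and Irx5 over, all wildtype pools in every mutant pool. Calb2, the calretinin gene of ganglion and amacrine cells, was at 28.9 to 32.9 CPM in wildtype and 21.8 to 27.1 CPM in mutant pools (-0.34, SE 0.12). Of these genes the edgeR adjusted p was 0.993 throughout.

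Progenitor genes leaned higher, and did so mainly with 1 library. Of 17 tested 15 were higher and 2 lower, with a median of 0.11. Groups did not overlap for 3 of 17, Six3, Hes1 and Sfrp2, all higher, against 2.47% of all genes tested. Hes1, a Notch target that keeps progenitors dividing, was at 124, 124 and 121 CPM in wildtype pools and at 129.8, 132 and 174 CPM in mutant pools (0.25, SE 0.13). Without mutant pool 6, 10 of 17 were higher and the median was 0.03, and without mutant pool 4 it was 0.20. Neurogenic precursor genes had 14 of 21 higher (median 0.07, and 0.01 without mutant pool 6, 0.03 without wildtype pool 4), among them Atoh7, the factor that makes progenitors competent for the ganglion cell fate, at 590, 536 and 560 CPM in wildtype pools and 592, 704 and 765 CPM in mutant pools (0.30, SE 0.11). Cell cycle genes had 11 of 20 higher, with a median of 0.02, and 0 of 20 without overlap, against 5.39% of all genes tested.

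Genes of later-born or other neurons differed little. Amacrine genes were lower for 12 of 15 tested (median -0.09). Groups did not overlap for 1 of 15, Gad1, lower in mutants, against 2.92% of all genes tested. Gad1, which encodes a GABA-making enzyme, was at 0.520 to 0.664 CPM in wildtype and 0.216 to 0.476 CPM in mutant pools. Photoreceptor precursor genes were lower for 9 of 12 (median -0.07), and Crx, a photoreceptor homeobox gene, was at 92.4 to 101 CPM in wildtype and 85.3 to 92.2 CPM in mutant pools (-0.11). Horizontal cell genes were lower for 4 of 7 (median -0.07). With 1 library left out, medians ran from -0.20 (without wildtype pool 4) to -0.04 (without mutant pool 5) for amacrine, from -0.15 (without wildtype pool 4) to -0.01 (without mutant pool 6) for photoreceptor and from -0.24 (without mutant pool 4) to 0.11 (without wildtype pool 5) for horizontal cell genes. Axon guidance genes were lower for 13 of 31 and higher for 18 (median 0.02), and apoptosis genes were higher for 12 of 20 (median 0.05). Groups did not overlap for 2 of 20 apoptosis genes, Bax and Bcl2l11, both higher, against 2.47% of all genes tested. They encode death-promoting proteins and stood at 0.20 and 0.15 on the log2 scale. Of the 20, 0 had an unadjusted edgeR p under 0.05.

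**Figure D3:**
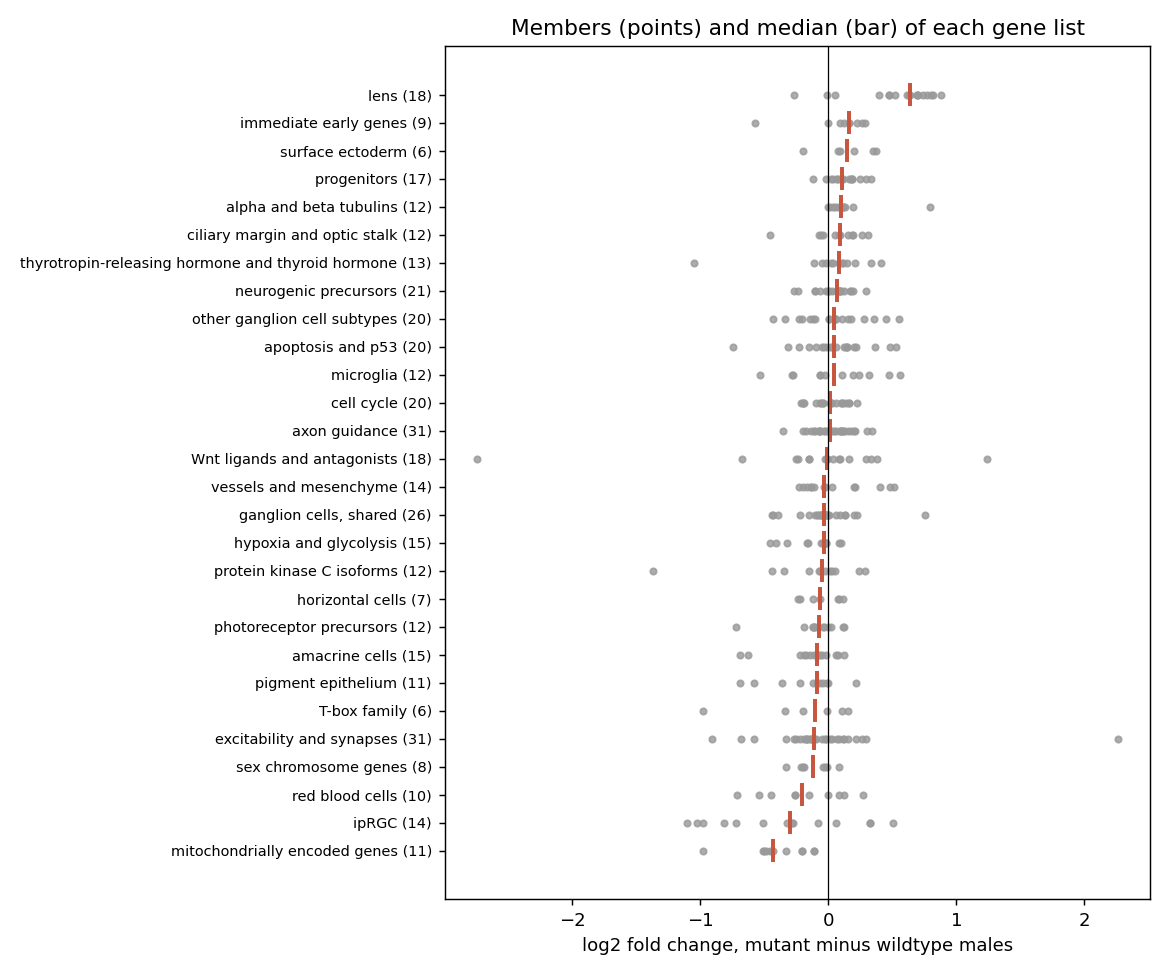
Log2 fold change of male mutant minus wildtype pools (horizontal axis) for each tested member (grey points) and the median (red bar) of 28 gene lists (vertical axis, number tested in brackets), ordered by median. The ipRGC median of -0.30 is second lowest after that of the mitochondrially encoded genes, the lens list is the highest at 0.64, and the other neuronal lists lie within 0.11 of 0.

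Library-wide features crossed the genotypes. Total counts ran from 18516306 in mutant pool 6 to 25601077 in wildtype pool 5, and the retinal homeobox gene Pax6 was at 566 to 688 CPM in all 6. The first principal component of log2 CPM, with 54.0% of the variance, set mutant pool 6 at 62.8 apart from the others at -31.0 to 2.68. Wildtype pool 5 and mutant pool 4 were the most alike of the 15 pairs (Pearson r over genes 0.9917) and shared high mt-Nd6, a mitochondrial transcript, at 418 and 374 CPM against 9.70 to 30.1 CPM elsewhere. Mitochondrially encoded genes were lower in mutants for 11 of 11 tested (median -0.43), with summed levels of 9194, 14705 and 8377 CPM in wildtype pools and 13298, 6938 and 3750 CPM in mutant pools, and without wildtype pool 5 or mutant pool 6 only 5 of 11 were lower. Lens genes, from tissue next to the retina, were higher for 16 of 18 (median 0.64), with summed levels of 64.5, 924 and 12.8 CPM in wildtype pools and 615, 1083 and 8.70 CPM in mutant pools, and 0 of 18 had groups without overlap. Without mutant pool 5 the lens genes turned, with 16 of 18 lower and a median of -0.25, and without wildtype pools 4, 5 or 6 or mutant pool 6 the median was 0.17, 4.07, 0.11 or 1.19. Red blood cell genes summed to 435 to 464 CPM in wildtype and 303 to 574 CPM in mutant pools, and microglia genes to 59.9 to 64.8 and 61.4 to 73.1 CPM. Xist had at most 7 reads in a library and 4 Y-linked genes summed to 71.7 to 194 CPM, as in male tissue.

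**Figure D4:**
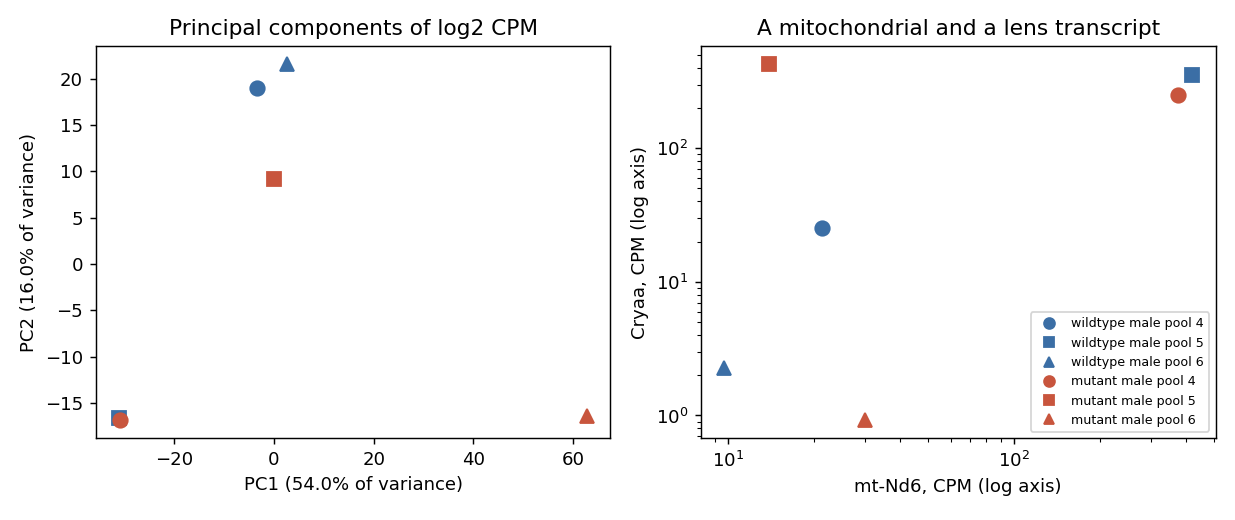
Left, the 6 male pools on the first 2 principal components of log2 CPM; right, their levels of the mitochondrial transcript mt-Nd6 and the lens transcript Cryaa in CPM, both axes log. Wildtype pool 5 and mutant pool 4 lie together in the left panel and are high in both transcripts in the right one, and mutant pool 6 lies alone at 62.8 on the first component.

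Within these sets of libraries the differences varied in size, their direction being fixed where groups do not overlap. Eomes differed by -1.61 in log2(CPM + 0.1) between mutant 4 and wildtype 5, the 2 pools with high mt-Nd6, and by -1.32 among the 4 with low mt-Nd6. The matching pairs of values were -1.09 and -1.49 for Prkcq, -1.55 and -0.91 for Irx1, and -0.81 and -1.11 for Tbx20. For Cacna1i they were 3.94 and 1.93. With a term for this set of libraries, edgeR called 2 genes, Eomes (adjusted p = 0.0459) and RP24-68F22.7, and DESeq2 called 10, which added Igf1, Cacna1i, Tbx20 and Rgs4 to the 6. Without the 2 pools highest in Cryaa the value of Eomes was -1.20.

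Female libraries of the same genotypes share no library with the male ones, and showed the genes chosen in males differently for the 2 directions. Of the 12 male genes downward, 10 were also lower in females and 6 of these had female groups without overlap (3.86% of genes tested in females were lower without overlap). Those 6 were Eomes, Prkcq, Irx1, Trhde, Igf1 and Tbx20, with female log2 fold changes of -2.08, -0.92, -1.98, -1.13, -1.07 and -1.17. Of the 12 upward, 5 were also higher in females, and 1, Cacna1i at 2.07, had female groups without overlap (4.23% of genes tested in females). The female median was -0.82 for the genes downward, against -0.96 in males, and -0.00 for those upward, against 0.98 in males. Values chosen as the largest in males can overstate the male difference, so these medians are a description.

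The difference between the sexes itself was tested as an interaction of genotype and sex over 12 libraries. By edgeR 0 of 15467 genes (0%) passed at an adjusted p of 0.05, and 267 (1.73%) had an unadjusted p under 0.05; DESeq2 also called 0. For Eomes, given here as the targeted gene, the female minus male difference was -0.64 (SE 0.25, unadjusted p = 0.0264, edgeR adjusted p = 1) and did not pass. The male values that chose the 12 genes per direction, Eomes among them, also enter this test. It is therefore not read for the others of those genes. Wnt4 at -4.44, Lmo2 at 0.59, Shh at 0.39 and RP24-68F22.7 at 1.59 had female groups without overlap in the male direction, whereas Tuba1c at 0.41 and Gm3756 at -0.02 had overlapping female groups. For ipRGC genes 9 of 14 were lower in females, with a median of -0.12. Female values were also lower for 12 of 15 amacrine genes (median -0.14) and 17 of 26 genes shared by ganglion cells (median -0.02). Some lists that leaned higher in males turned in females. There, 11 of 17 progenitor, 14 of 21 neurogenic precursor and 27 of 41 clustered histone genes were lower. Others did not turn, with 0 of 17 lens, 3 of 13 thyroid hormone, 6 of 19 apoptosis and 5 of 12 tubulin genes lower. The female median of the lens list was 2.19.

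**Figure D5:**
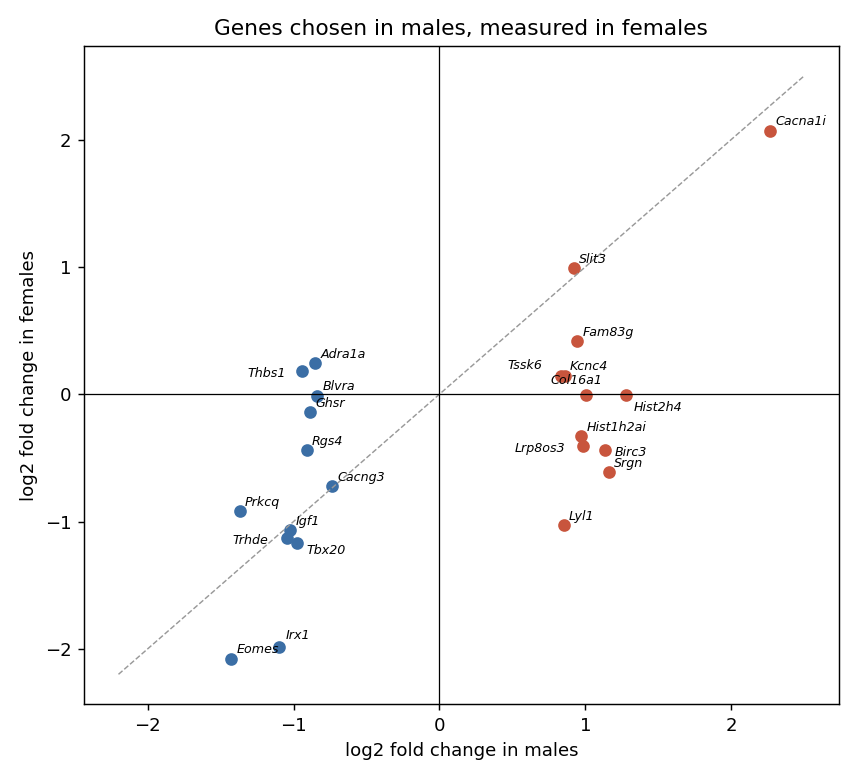
Log2 fold change in females (vertical axis) against that in males (horizontal axis), mutant minus wildtype, for the 12 genes of largest difference downward (blue) and upward (red) in males, with a dashed line where both are equal. Eomes, Irx1, Trhde, Igf1, Tbx20 and Cacna1i lie well away from 0 in both sexes, while most red points lie near or under 0 in females.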

How the data were processed

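RNA of 6 male retina pools was analysed, from the table the authors deposited for males, and the table of both sexes served the female values and the interaction. Per the submitters' processing notes, CASAVA, STAR 2.5, HTSeq 0.6.1, DESeq2 and the build mm10 were used. Of the annotation release and the strand setting, nothing is given in the sources used here. Per the file headers, the deposited values are raw read counts per gene and library, whole numbers with no normalization. FPKM values were computed by the authors from those counts and the listed gene length. The log2 fold changes and the p-values the authors deposited come from their DESeq2 comparison, and served only to count their calls.

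CPM are counts over the library total. The male table lists 20379 genes, of which 20167 IDs are in GENCODE M21, and 1421, with 0.0197% of reads, are not in the table of both sexes. Counts were tested with edgeR 4.0.16 in R 4.3.3 (TMM, filterByExpr, two-sided quasi-likelihood test, Benjamini-Hochberg adjustment at 0.05), with DESeq2 1.42.0 and limma 3.58.1 (voom) as alternatives. Standard errors restate the edgeR test (log2 fold change divided by the root of F). Principal components used log2 CPM with a prior count of 2.

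The genes and the 28 lists were chosen with earlier results of these data known. Named genes are Eomes, all genes called by a tool or in the authors' table, up to 12 per direction with the largest fold change among those with an unadjusted p under 0.05, at least 1 CPM on average and no overlap (predicted genes, clone names and pseudogenes skipped), and in each list its first 3 genes and members with an unadjusted p under 0.05 and no overlap. Other genes named were chosen after their values were seen. Same-numbered pools deviated from their group means with correlations of -0.233, 0.0310 and 0.334. Pools of different number had correlations from -0.424 to 0.477. The pools were therefore not treated as pairs, though correlations over 3 pools a group cannot exclude pairing. Precision is limited by 3 pools a group. Sequences are from RefSeq, GRCm38.p6.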

Additional observations from a re-analysis of the deposited data

How the results depend on the processing

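The number of genes called between male genotypes was 0 by edgeR and stayed 0 under other scalings (RLE, upper quartile), both other filters, limma voom, the 4 libraries with low mt-Nd6, without the 2 pools highest in Cryaa, and with any 1 library left out. It was 6 by DESeq2 and 2 with a term for the mt-Nd6 set. With replicate number as a block (replicate block) it was 0, with 188 genes at an unadjusted p under 0.05 against 217 without, and the interaction with the block was also 0. DESeq2 fits added after seeing the data called 10 genes with the term for the set and 16 among the 4 low libraries. With 1 library left out DESeq2 called between 1 and 51: 51 without mutant pool 4, 9 without mutant pool 6, 6 without wildtype pool 5, 4 without wildtype pool 4, 3 without wildtype pool 6 and 1 without mutant pool 5; the cause was not tested. Without mutant pool 4, 1833 genes had an unadjusted edgeR p under 0.05. Scarce genes near 1 CPM, which make up most of those upward, rest on few reads.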

Other observations

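Genes of pigment epithelium, the pigmented layer behind the retina, were lower in mutant males for 9 of 11 tested, with a median log2 fold change of -0.09. The median was -0.02, with 6 of 11 lower, without wildtype pool 4, and -0.24 without mutant pool 5. Tyrp1, which encodes a melanin synthesis enzyme, was at 3.07, 3.95 and 3.23 CPM in wildtype pools 4, 5 and 6 and at 2.91, 1.86 and 2.05 CPM in mutant pools. Gpnmb, a pigment cell glycoprotein gene, was at 3.12, 2.58 and 1.72 CPM in wildtype pools and at 1.67, 1.45 and 1.46 CPM in mutant pools. These were the 2 of 11 genes without overlap, both lower, against 2.92% of all genes tested. Mitf and Tyr, a regulator and an enzyme gene of the same cells, had log2 fold changes of -0.01 and 0.00 with overlap. The summed level of the list was 81.6 to 102 CPM in wildtype and 80.4 to 90.8 CPM in mutant pools.

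Hypoxia and glycolysis genes were lower for 13 of 15 tested with a median of -0.04, while among the 4 pools with low mt-Nd6 only 5 of 15 were lower, with a median of 0.10, and without mutant pool 4 or wildtype pool 5 the median was 0.03 or 0.01. Immediate early genes were higher for 7 of 9 (median 0.16, and 0.05 without mutant pool 6) and ciliary margin and optic stalk genes for 8 of 12 (median 0.09, and 0.01 without mutant pool 6). Genes of vessels and mesenchyme were lower for 8 of 14 (median -0.03, and between -0.13 and 0.02 with 1 library left out), surface ectoderm genes higher for 5 of 6 (median 0.15, and -0.05 without wildtype pool 4) and microglia genes higher for 6 of 12 (median 0.04, and 0.15 without mutant pool 5). Red blood cell genes were lower for 7 of 10 (median -0.20), but without mutant pool 4 for 4 of 9 (median 0.02). Sex chromosome genes were lower for 7 of 8 (median -0.12), but without mutant pool 6 for 1 of 8 (median 0.08) and without wildtype pool 5 for 2 of 8 (median 0.03). In these 8 lists, 1 gene had groups without overlap, against 5.39% of all genes tested. It was the complement gene C1qa of microglia, at 5.43 to 6.81 CPM in wildtype and 6.86 to 11.1 CPM in mutant pools.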
